A study of Mus musculus with 34 samples.

Results

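10 genes of heat shock proteins and their partner chaperones were followed: Hspa5, Hsp90b1, Hspa8, Hspa1a, Hspa1b, Hsph1, Bag3, Hsp90aa1, Dnajb1 and Dnajb5. They were taken by gene symbol from each of the study's 5 count tables, which together list 54540 symbols. All 10 were listed in the tables of batches 1, 3, 4 and 5, and 9 in that of batch 2, which has no row for Hspa1b.

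Chaperones hold proteins while they fold, refold or are passed on for degradation. The HSP70 proteins bind short unfolded stretches in a cycle driven by ATP: J-domain proteins deliver the client and start ATP hydrolysis, and nucleotide exchange factors release the client again. The HSP90 proteins act later, on clients that are nearly folded, such as kinases and receptors. The cytosol and the endoplasmic reticulum (ER) have separate sets, of which the cytosolic one is induced through heat shock factors and the ER one through the unfolded protein response. Hspa5 (BiP) and Hsp90b1 (GRP94) are the HSP70 and HSP90 of the ER. Hspa8 is the constitutive cytosolic HSP70, which in neurons also strips clathrin from vesicles, Hspa1a and Hspa1b are the stress-induced copies, and Hsp90aa1 is the stress-inducible cytosolic HSP90. Dnajb1 and Dnajb5 are J-domain partners of HSP70. Hsph1 (an HSP110) and Bag3 are exchange factors, and Bag3 also routes HSP70 clients to autophagy.

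The study measured messenger RNA on ribosomes of parvalbumin (PV) and somatostatin (SST) interneurons, the main inhibitory cell classes of the cortex, by RiboTag: Cre recombinase switches on an HA-tagged ribosomal protein, Rpl22, and tagged ribosomes are pulled down with an antibody. It asked which genes these cells alter during associative learning, with wide excitation by a convulsant as a frame of reference, and how cells without Nr4a1, an activity-induced nuclear receptor, differ. Tissue is labelled cortex and hippocampus of C57/BL6 mice at postnatal day 60, while the protocol names cortices. 34 libraries in 11 groups were sequenced in 5 labelled batches.

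Every group carried the RiboTag allele and a Cre driver, PvalbCre in 18 libraries and SstCre in 16, so a library holds all cells that the driver has reached. In batch 1, PV:Cre/Ribotag mice had received pentylenetetrazol (PTZ), a GABA receptor antagonist (4 libraries), or saline (3). In batch 2, Sst:Cre/Ribotag mice had received PTZ (3) or saline (4), beside PV:Cre/Ribotag mice on saline (2). In batch 3, PV:Cre/Ribotag mice had undergone contextual fear conditioning (CFC), in which a cage is paired with foot shocks (3), PV:Cre/Nr4a1-f/f/Ribotag mice, the conditional knockout (cKO), were left in the home cage (3), and PV:Cre/Ribotag mice were home cage controls (3). In batch 4, Sst:Cre/Ribotag mice had undergone CFC (3) or stayed in the home cage (3). Batch 5 held the Sst:Cre/Nr4a1-f/f/Ribotag home cage mice (3), so that for SST cells deletion and batch cannot be told apart. Groups were compared within a batch except there.

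Library totals ran between 4933110 and 27282912 counts. PV saline in batch 2 had the lowest. 1 home cage PV library (replicate 3) had 4.6% of its counts in the ribosomal RNA gene. Levels are given as CPM, counts scaled to a common library size. Of 9 activity-induced genes used as a check, 8 rose in SST cells after PTZ, 4 in PV cells after PTZ, 5 in SST cells after CFC and 0 in PV cells after CFC, where all 9 were higher on average, 8 had an unadjusted edgeR p under 0.05 and DESeq2 called 5. Nr4a1 itself was at 6.68, 16.5 and 7.65 CPM in the PV libraries labelled cKO against 5.07, 7.43 and 11.7 CPM in PV home cage libraries, and at 14.2, 11.3 and 17.6 CPM in the SST libraries labelled cKO against 23.8, 15.3 and 13.9 CPM in SST home cage libraries. Counts over a whole gene cannot show the loss of single exons, so these levels do not check the deletion. Pvalb was below Sst in the batch 1 PV saline libraries (Pvalb 15.9 to 22.1, Sst 38.0 to 62.3 CPM). The 14 PV markers, Gad1 and Gad2 among them, summed to 7955 to 13252 CPM there. In batch 2 they summed to 8016 to 8665 CPM in SST saline and 11976 to 13646 CPM in PV saline libraries. Sums in the batch 1 range thus also occur in SST libraries. In bulk libraries, fewer cells of a type and less RNA per cell cannot be told apart.

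The genes lie on separate chromosomes except for the Hspa1a and Hspa1b pair (GRCm38 coordinates, all protein coding). Hspa5 spans chr2:34771970-34777547 on the plus strand, Hsp90b1 chr10:86690209-86705509 on the minus strand, Hspa8 chr9:40800984-40810087 on the plus strand and Hsp90aa1 chr12:110690605-110702728 on the minus strand. Hspa1a (chr17:34969190-34972156) and Hspa1b (chr17:34956436-34959238) are single-exon genes on the minus strand. Hsph1 spans chr5:149614287-149636376 on the minus strand, and Dnajb1 (chr8:83608193-83612653), Dnajb5 (chr4:42949814-42959425) and Bag3 (chr7:128523616-128546981) lie on the plus strand. Copies make 4 of the counts uncertain, since reads from shared stretches may have been dropped or assigned elsewhere. Of all 50-base stretches of the transcript, 73.2% in Hspa8, 58.5% in Hsp90aa1, 60.3% in Hspa1a and 62.3% in Hspa1b also occur in another gene, in Hspa1a and Hspa1b mostly in each other, and in the other 6 genes at most 3.71% do. Hspa1a overlaps Gm20481 on the opposite strand over 2225 bases and Hsp90b1 overlaps 1810014B01Rik on the opposite strand over 4598 bases. Nothing at hand says whether the counting used strand.

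The promoters of the ER pair and of the inducible HSP70 pair are shown because they carry, in these letters, the ER stress response element, bound by NF-Y with ATF6, or a pair of facing heat shock units, the short form of the site that heat shock factors bind. Each is the 250 bases before the RefSeq start (build GRCm38.p6), 5′ to 3′ on the gene's strand, with matches in capitals. The windows are chr2:34771840-34772089 (plus), chr10:86705445-86705694 (minus), chr17:34972157-34972406 (minus) and chr17:34959239-34959488 (minus).
Hspa5: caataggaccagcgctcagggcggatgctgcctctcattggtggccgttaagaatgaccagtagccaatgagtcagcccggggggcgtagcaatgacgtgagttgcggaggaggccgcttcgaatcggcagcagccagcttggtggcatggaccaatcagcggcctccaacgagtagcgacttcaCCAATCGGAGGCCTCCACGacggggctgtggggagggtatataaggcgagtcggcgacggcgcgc
Hsp90b1: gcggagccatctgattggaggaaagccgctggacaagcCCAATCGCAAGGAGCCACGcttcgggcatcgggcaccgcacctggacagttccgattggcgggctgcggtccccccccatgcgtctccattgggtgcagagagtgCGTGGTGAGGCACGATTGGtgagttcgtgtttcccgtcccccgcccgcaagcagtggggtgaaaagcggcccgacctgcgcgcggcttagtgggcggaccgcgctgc
Hspa1a: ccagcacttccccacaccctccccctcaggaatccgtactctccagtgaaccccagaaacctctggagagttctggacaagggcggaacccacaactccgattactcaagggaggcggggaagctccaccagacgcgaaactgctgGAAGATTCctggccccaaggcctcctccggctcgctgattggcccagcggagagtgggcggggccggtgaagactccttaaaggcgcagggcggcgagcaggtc
Hspa1b: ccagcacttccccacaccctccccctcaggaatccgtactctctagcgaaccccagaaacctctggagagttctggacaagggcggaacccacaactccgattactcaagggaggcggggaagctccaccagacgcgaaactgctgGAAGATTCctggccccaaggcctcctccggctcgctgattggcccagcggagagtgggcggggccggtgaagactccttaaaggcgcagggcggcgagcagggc
The ER element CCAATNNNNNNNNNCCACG, searched on both strands, lay 65 to 47 bases before the Hspa5 start and in 2 copies before Hsp90b1, at 212 to 194 and at 107 to 89 bases, of which the nearer is on the opposite strand. It occurred in 0.113% of 32851 promoter windows of the genome. The heat shock unit pair GAANNTTC lay 104 to 97 bases before both Hspa1a and Hspa1b and occurred in 6.69% of windows. The Hspa1a and Hspa1b windows were the same at 247 of 250 bases. Windows were at hand for 8 of the 10 genes, and 4 of them held a match to one of the motifs searched, which also included GAANNTTCNNGAA, the cyclic AMP element TGACGTCA and the CArG box (0.466%, 1.55% and 1.47% of windows). None of these last motifs matched a member's window. A match describes letters and does not show binding.

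Per kilobase of exon, the constitutive Hspa8 and the inducible copies Hspa1a and Hspa1b differed by orders of magnitude. Hspa8 was the highest member in every group, with group means between 458 CPM per kb in PV home cage cells and 909 in batch 1 PV saline cells. Hsp90aa1 followed, at 148 in the SST libraries labelled cKO to 639 CPM per kb in batch 1 PV saline. The ER pair came next, Hspa5 at 42.1 (PV PTZ) to 183 (SST home cage) and Hsp90b1 at 47.5 (PV home cage) to 193 CPM per kb (SST PTZ). Hsph1 lay between 30.3 and 94.6, Dnajb1 between 9.45 and 46.7, Bag3 between 2.91 and 21.9 and Dnajb5 between 3.03 and 10.2 CPM per kb. The inducible copies were lowest, Hspa1a at 0.838 to 2.47 and Hspa1b at 0.494 to 1.26 CPM per kb. The ranges of neighbours in this order overlap across groups, and the levels of batches were scaled separately. Length here is that of all annotated exons of a gene joined, 7266 bases in Hsph1, 5936 in Dnajb5 and 2562 in Bag3. Their longest coding transcripts have 3802, 3302 and 2562 bases, so the order of neighbours depends on the length used.

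**Figure D1:**
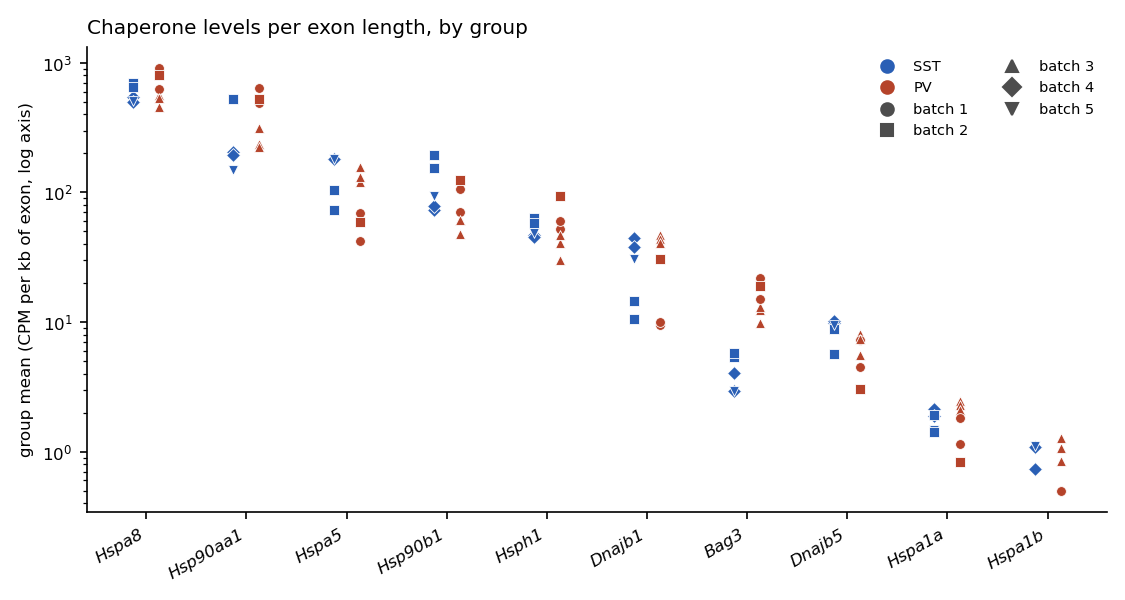
Group mean level per length (CPM per kb of all annotated exons joined, log axis) of the 10 chaperone genes in the 11 groups, ordered by their median. Hspa8 and Hsp90aa1 lie at the top, between 148 and 909 CPM per kb, and Hspa1a and Hspa1b at the bottom, at or below 2.47.

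**Figure D2:**
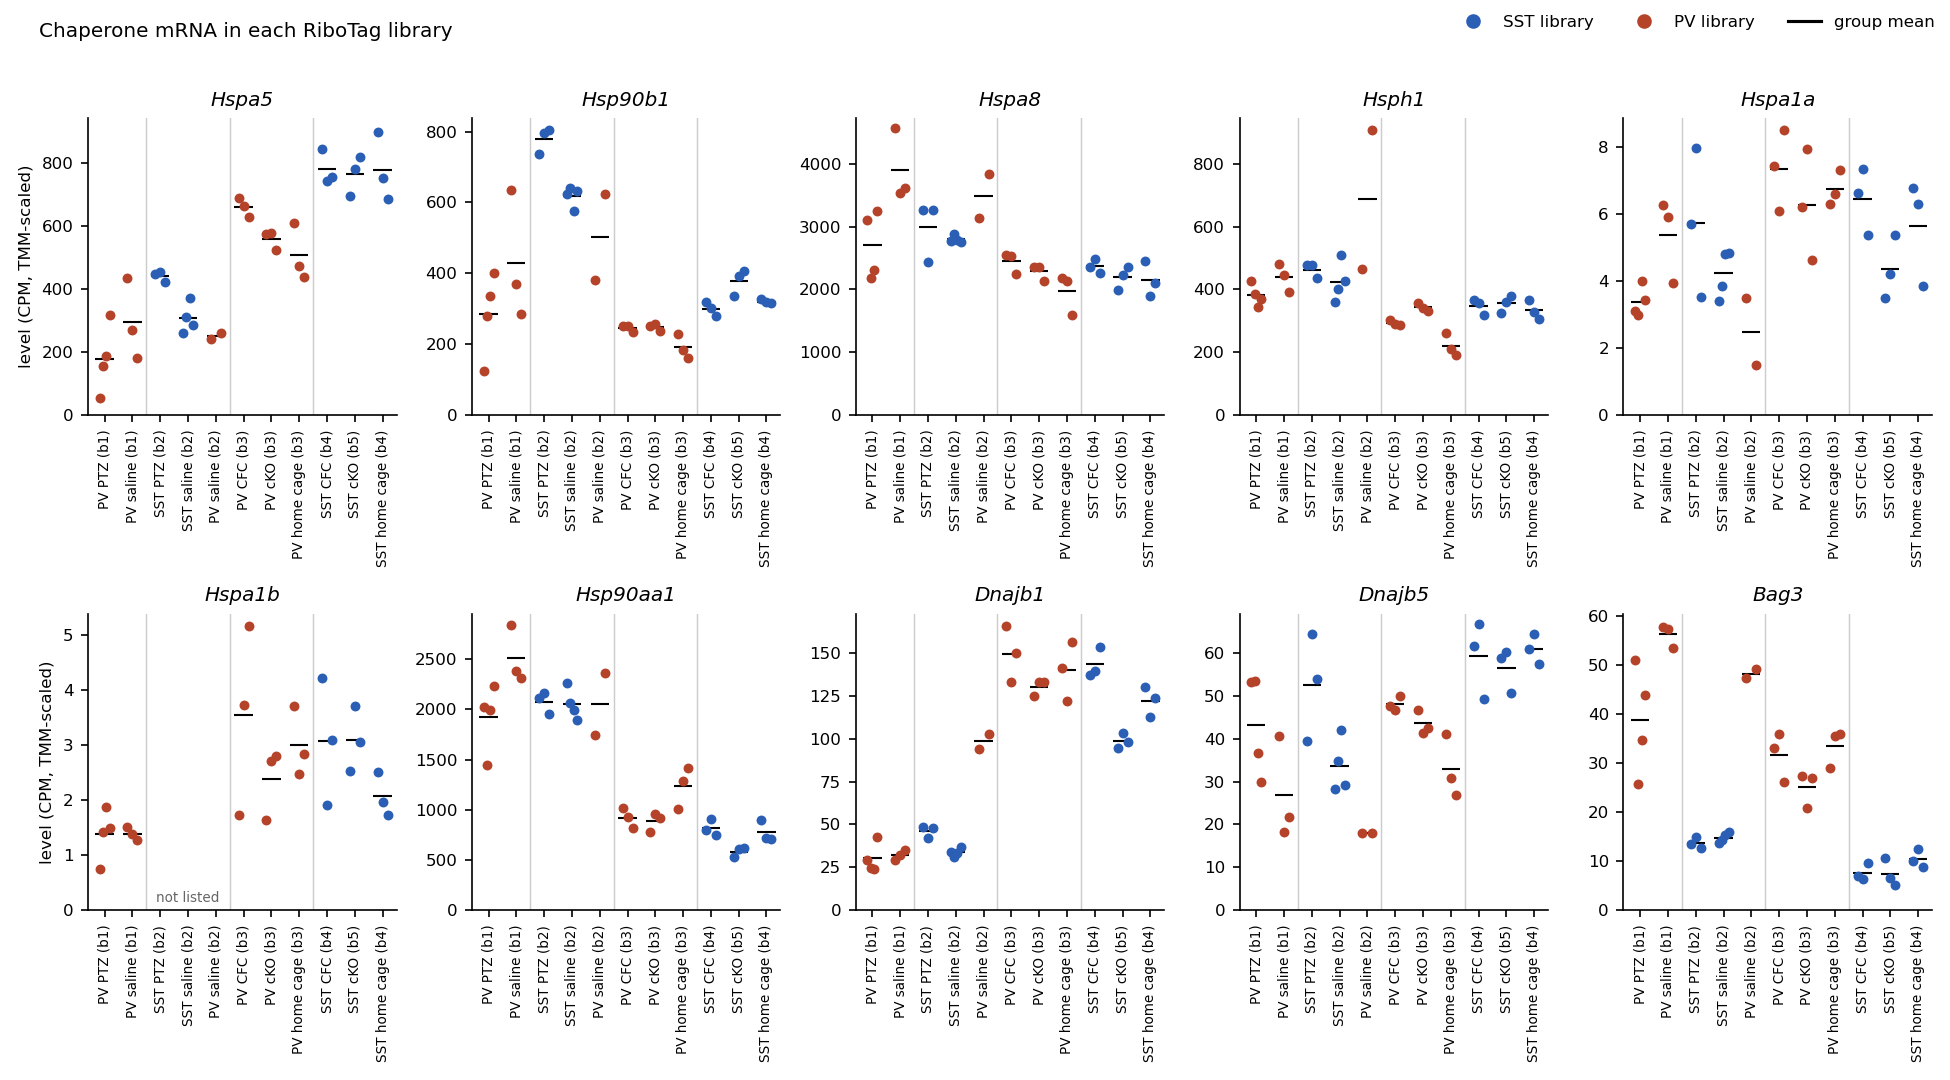
CPM per library for each chaperone gene in 11 groups, by batch (blue SST, red PV, black line the group mean), with batches 4 and 5 scaled together. SST PTZ libraries lie above SST saline for Hspa5 and Dnajb1, and every SST library lies below every PV library for Bag3.

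In SST cells both ER chaperones and both J-domain partners had higher mean levels after PTZ than after saline, though none passed the edgeR threshold. Hspa5 was at 448, 456 and 422 CPM in SST PTZ libraries against 261, 309.9, 373 and 287 CPM in SST saline libraries. All PTZ values lay above all saline values. The means were 442 ± 17.6 (SD, n = 3) and 308 ± 47.6 CPM (n = 4). This is a fold of 1.44, or 0.52 ± 0.12 on the log2 scale (± SE, 95% interval 0.26 to 0.78), with an edgeR adjusted p of 0.325 over 11784 genes. Hsp90b1, its ER partner, was at 736, 797 and 803 CPM after PTZ and at 623, 642, 576 and 633 CPM after saline, again without overlap (log2 0.33 ± 0.14, edgeR adjusted p 0.989). Dnajb1, which drives the HSP70 cycle, was at 48.6, 42.3 and 47.8 CPM after PTZ against 33.7, 30.9, 33.6 and 36.9 CPM after saline. These groups did not overlap either (log2 0.45 ± 0.12, 95% interval 0.20 to 0.71, edgeR adjusted p 0.647). Dnajb5 was at 39.5, 64.3 and 53.9 CPM after PTZ and at 28.2, 34.8, 42.0 and 29.1 CPM after saline, where 1 PTZ library lies within the saline range (log2 0.65 ± 0.19, 95% interval 0.24 to 1.06, edgeR adjusted p 0.917).

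No member passed the edgeR threshold of 0.05 in SST PTZ cells, where 0.144% of all genes did. At an unadjusted p under 0.05 there were 4 of the 9 listed members (4.34% of all genes), DESeq2 called 2 (0.322% of all genes) and limma voom 0. The 2 were Hspa5 with a DESeq2 adjusted p of 0.0278 and Dnajb1 with 0.0421. Fitted without the PV libraries of the batch, Hspa5 also passed with edgeR (adjusted p 0.0454). 3 of 9 members had groups that did not overlap, all higher, against 4.57% of all genes higher and 10.4% in either direction. 8 of the 9 fold changes were above 0 and their median was 0.33, against -0.01 over all genes. Hspa8, Hsp90aa1 and Bag3 had smaller differences than the ER pair, Dnajb1 and Dnajb5. Hspa8 was at 3271, 2442 and 3271 CPM after PTZ against 2757 to 2877 CPM after saline (log2 0.10 ± 0.12). Hsp90aa1 was at 1952 to 2166 against 1894 to 2263 CPM (log2 0.02 ± 0.11). Bag3 was at 12.6 to 14.9 against 13.7 to 15.9 CPM (log2 -0.11 ± 0.15). Hsph1 overlapped between the groups, at 436 to 477 CPM after PTZ against 359 to 511 CPM after saline. Hspa1a, the inducible form, was low in both groups, at 3.51 to 7.98 against 3.39 to 4.84 CPM (log2 0.44 ± 0.33). Vascular markers moved with the comparison: 14 of 18 were listed, none at 0 in either group, and their sum was 73.2 to 94.97 CPM after PTZ against 39.1 to 65.5 CPM after saline (their part in the result was not tested).

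In PV cells, 9 of the 10 genes had lower fitted levels after PTZ than after saline, none past the edgeR threshold, and the libraries varied widely. Hspa5 was at 53.5, 154, 187 and 316 CPM in PV PTZ libraries against 437, 268 and 181 CPM in PV saline libraries of batch 1. The groups overlapped, and the log2 fold change of -0.73 ± 0.48 had a 95% interval of -1.80 to 0.33. Hsp90b1 followed the same order of libraries, at 125, 280.5, 336 and 401 CPM after PTZ and 634, 371 and 286 CPM after saline (log2 -0.59 ± 0.38). 3 members had groups that did not overlap, all lower after PTZ, where 6.24% of all genes were lower without overlap and 13.8% in either direction. Hspa8 was at 3108, 2188, 2311 and 3245 CPM after PTZ against 4577, 3537 and 3618 CPM after saline (log2 -0.53 ± 0.24, edgeR adjusted p 0.366). Hsp90aa1 was at 2023, 1447, 1999 and 2234 against 2839, 2384 and 2317 CPM (log2 -0.38 ± 0.23), and Bag3 at 50.9, 25.7, 34.7 and 43.8 against 57.7, 57.4 and 53.4 CPM (log2 -0.54 ± 0.23). Dnajb5 was the one member with a positive fold change, at 53.1, 53.4, 36.7 and 29.9 CPM after PTZ and 40.7, 18.1 and 21.8 CPM after saline (log2 0.69 ± 0.32, 95% interval -0.01 to 1.39).

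With edgeR, 0 of 10 members passed in PV PTZ cells (0.0294% of all genes), with adjusted p between 0.352 and 0.993. Bag3 alone had an unadjusted p under 0.05, as did 13.8% of all genes, and DESeq2, which called 1.58% of all genes, and voom called 0 members. The median over the members was -0.46, against -0.01 over all genes. Cell type markers differed between these groups as well, and none was at 0 in a group. The sum of the 18 vascular markers was 108 to 229 CPM after PTZ and 47.1 to 107 CPM after saline, without overlap. That of the 12 microglia markers was 70.8 to 557 and 52.6 to 158 CPM, and that of the 14 oligodendrocyte markers 683 to 3543 and 875 to 2372 CPM, with all members of both lists at fold changes above 0. The 14 PV markers summed to 3731 to 9307 and 7955 to 13252 CPM and the 12 astrocyte markers to 2118 to 3476 and 1019 to 5049 CPM, while Pvalb itself was at 40.3 to 128 CPM after PTZ against 15.9 to 22.1 CPM after saline. Saline replicate 1 had the highest astrocyte sum and the highest Hspa5, and PTZ replicate 2 the lowest PV sum and the lowest Hspa8. PTZ replicate 1, with the lowest Hspa5 and Hsp90b1, had a PV sum of 8207 CPM, within the saline range, and the lowest oligodendrocyte sum. The part of these markers in the result was not tested.

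The PTZ responses of SST and PV cells were compared directly, each taken against the saline group of its own batch. The difference, SST minus PV, was 1.22 ± 0.54 for Hspa5 (95% interval 0.08 to 2.35), 0.88 ± 0.44 for Hsp90b1, 0.59 ± 0.25 for Hspa8 and 1.06 ± 0.45 for Hspa1a on the log2 scale. It was 0.51 ± 0.25 for Dnajb1 and -0.08 ± 0.38 for Dnajb5. 8 of 9 differences were above 0, with a median of 0.51 against -0.04 over all genes. None passed with edgeR (adjusted p 0.82 for Hspa5, Hspa8 and Hspa1a, which had an unadjusted p under 0.05), nor did any other gene of 11743 (0%, with 5.13% at an unadjusted p under 0.05). DESeq2 (0.00852% of all genes) and voom called 0 members.

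**Figure D3:**
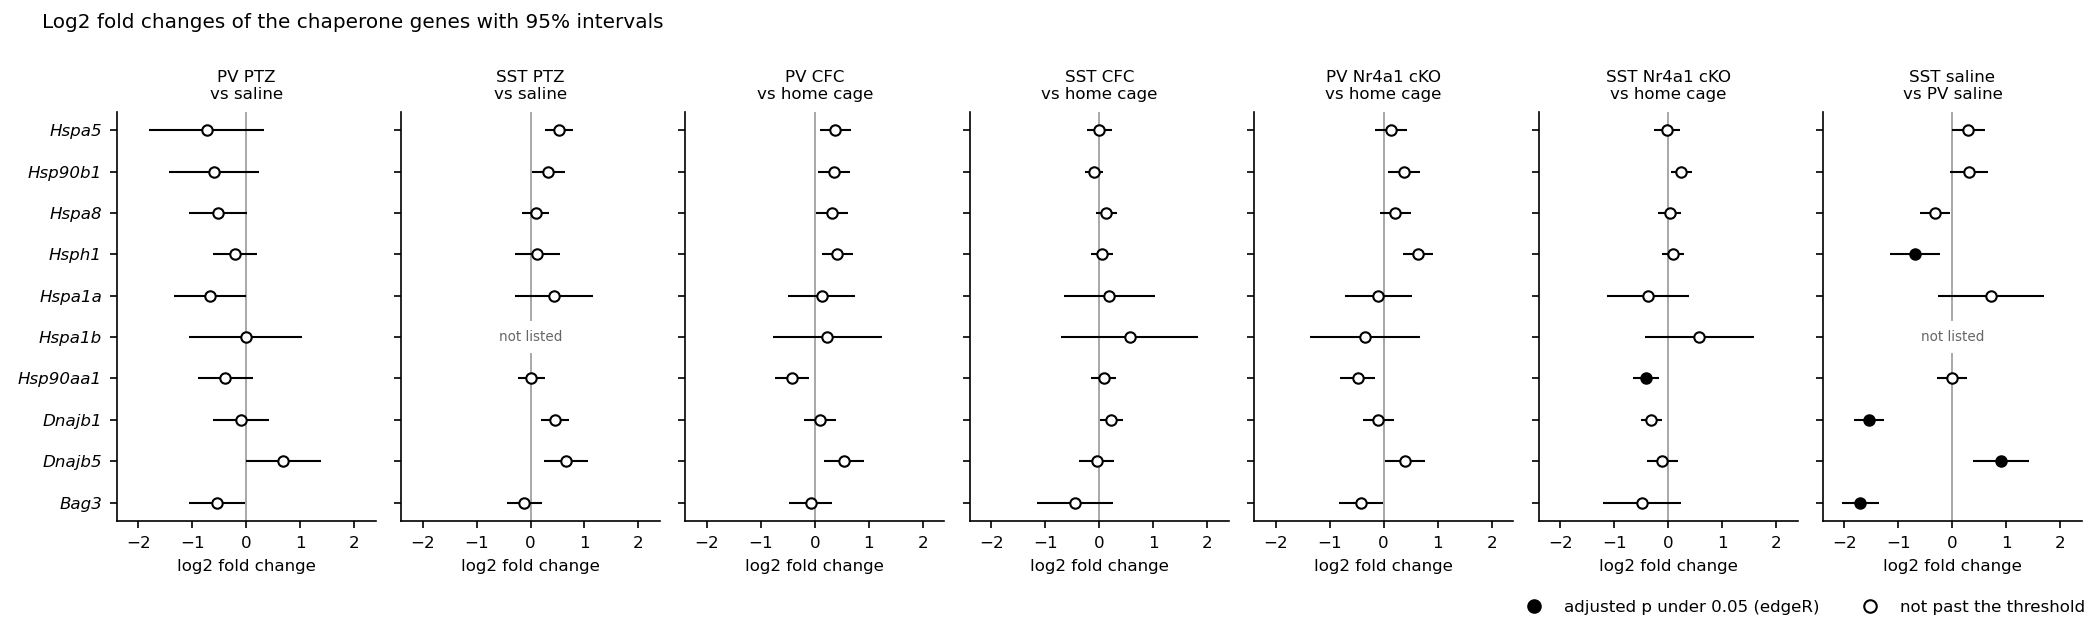
Log2 fold changes with 95% intervals for the 10 genes in 7 comparisons (filled points passed edgeR's adjusted p of 0.05). Among the responses to PTZ, CFC and deletion, Hsp90aa1 in SST libraries labelled cKO is the one filled point, and between SST and PV saline libraries Hsph1, Dnajb1, Dnajb5 and Bag3 are filled.

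In PV cells after fear conditioning, the ER pair, the cytosolic HSP70, its exchange factor Hsph1 and the J-domain protein Dnajb5 were all above the home cage range, and Hsp90aa1 was lower on average. Hspa5 was at 689, 665 and 628 CPM in PV CFC libraries against 612, 473 and 437 CPM in PV home cage libraries (log2 0.38 ± 0.14, 95% interval 0.09 to 0.67). Hsp90b1 was at 250.02, 252 and 235 against 229.7, 183 and 161 CPM (log2 0.36 ± 0.14). In both ER genes home cage replicate 1 lay closest to the CFC values. Hsph1 was at 303, 291 and 288 CPM after CFC and at 260.2, 209 and 190.3 CPM in the home cage (log2 0.42 ± 0.13, 95% interval 0.13 to 0.70). Dnajb5 was at 47.6, 46.7 and 50.0 CPM after CFC and at 41.2, 30.8 and 26.8 CPM in the home cage (log2 0.54 ± 0.17, 95% interval 0.17 to 0.91). Hspa8 was at 2546, 2540 and 2253 against 2181, 2130 and 1596 CPM (log2 0.31 ± 0.13). Hsp90aa1 ran the other way, at 1017, 931 and 819 CPM after CFC against 1010, 1286 and 1417 CPM in the home cage, with an overlap of 1 library (log2 -0.42 ± 0.15, 95% interval -0.75 to -0.10). Dnajb1 (133 to 166 against 122 to 157 CPM), Bag3 (26.0 to 35.8 against 28.9 to 35.9 CPM), Hspa1a (6.09 to 8.50 against 6.29 to 7.31 CPM) and Hspa1b (1.73 to 5.16 against 2.48 to 3.70 CPM) overlapped between groups.

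5 of 10 members were thus higher without overlap in PV CFC libraries, where 13.6% of all genes were higher without overlap and 25% differed so in either direction. With edgeR 0 of 10 passed, as did 0% of 15150 genes, and the smallest adjusted p was 0.186, for Hsph1 and Dnajb5. 6 members had an unadjusted p under 0.05 (18.7% of all genes), DESeq2 called 2, Hsph1 with an adjusted p of 0.0455 and Dnajb5 with 0.0448 (4.92% of all genes), and voom called 0. 1 library decided the count: without PV home cage replicate 1, 5 members passed with edgeR, namely Hspa5 (log2 0.54, adjusted p 0.0236), Hsp90b1 (0.52, 0.0272), Hsph1 (0.56, 0.0212), Dnajb5 (0.74, 0.0212) and Hsp90aa1 (-0.55, 0.034), among 1481 genes in all. Without any other single library none did. The depth and the share of the ribosomal RNA gene differed between these groups: totals were 22346957 to 23558079 counts after CFC against 20353741, 15301328 and 10096035 in home cage replicates 1, 2 and 3, and the shares 1.09 to 1.49% against 1.39, 2.45 and 4.6%. Hspa5, Hsp90b1, Hsph1, Hspa8 and Dnajb5 followed the order of the totals over the home cage libraries, and Hsp90aa1 the reverse order. Gad1, in both interneuron marker lists, was higher without overlap. It was at 3627 to 4299 CPM after CFC against 3476, 2865 and 1948 CPM in home cage replicates 1, 2 and 3. The marker sum of each cell type overlapped between the groups. The 14 PV markers summed to 11022 to 12630 against 9539 to 11589 CPM. Fold changes were above 0 for 7 of 14 PV and 11 of 12 astrocyte markers. Their part in the result was not tested.

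In SST cells after fear conditioning, 9 of the 10 genes overlapped with the home cage. Hspa5 was at 837, 730.2 and 748 CPM in SST CFC libraries and at 886, 751 and 680.1 CPM in SST home cage libraries, with the CFC values inside the home cage range (log2 -0.00 ± 0.10, 95% interval -0.24 to 0.23). Hsp90b1 was at 275 to 316 against 312 to 321 CPM, Hsph1 at 316 to 362 against 304 to 361 CPM, Hspa8 at 2236 to 2435 against 1894 to 2406 CPM and Hsp90aa1 at 746 to 890.0 against 699.6 to 881 CPM. Dnajb1 was the member without overlap, at 136, 137 and 152 CPM after CFC and 128, 113 and 123 CPM in the home cage (log2 0.23 ± 0.09, 95% interval 0.01 to 0.44, edgeR adjusted p 0.881). Bag3 was low in both groups, at 6.98, 6.16 and 9.55 against 9.77, 12.5 and 8.74 CPM (log2 -0.45 ± 0.31). 0 of 10 members passed with edgeR (0.0411% of all genes), 1 had an unadjusted p under 0.05 (5.57% of all genes), 1 had groups without overlap (10.6% of all genes), and DESeq2 (0.698% of all genes) and voom called 0. Vascular markers, 18 of 18 listed and none at 0, summed to 131 to 170 CPM after CFC against 229 to 1206 CPM in the home cage. The 12 astrocyte markers (398 to 507 against 525 to 736 CPM) and the 11 microglia markers listed (62.4 to 68.7 against 77.3 to 108 CPM) were also lower without overlap. Their part in the result was not tested.

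The CFC responses of the SST and PV lines differed by 0.56 ± 0.20 for Hsp90aa1, -0.40 ± 0.16 for Hsp90b1, -0.53 ± 0.22 for Dnajb5 and -0.32 ± 0.18 for Hspa5 (log2, SST minus PV). None passed with edgeR (adjusted p 0.222, 0.257, 0.269 and 0.404), nor did any other of 16081 genes (0%). Hsp90aa1, Hsp90b1 and Dnajb5 had an unadjusted p under 0.05, as did 15.2% of all genes. Without PV home cage replicate 1, Hsp90aa1 (0.70, adjusted p 0.0392) and Hsp90b1 (-0.54, adjusted p 0.0377) passed. DESeq2 (2.03% of all genes) and voom called 0 members. In the SST line, the CFC response less the PTZ response was -0.50 ± 0.17 for Hspa5 and -0.67 ± 0.26 for Dnajb5, with edgeR adjusted p of 0.525 and 0.565. In the PV line it was 0.78 ± 0.29 for Hspa8 and 0.56 ± 0.23 for Hsph1, with edgeR adjusted p of 0.294 and 0.306. 0 members passed in either line with edgeR, DESeq2 or voom. Of all genes, edgeR called 0.0875% and DESeq2 0.543% in the SST line, and 0.00701% and 0.281% in the PV line. At an unadjusted p under 0.05 there were 3 members in the SST line (7.44% of all genes) and 2 in the PV line (13.8% of all genes).

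In the PV libraries labelled cKO, Hsph1 stood furthest from the home cage. It was at 358, 340.3 and 330.1 CPM there against 260.2, 209 and 190.3 CPM in PV home cage libraries, with means of 343 ± 14.2 and 220.0 ± 36.1 CPM (SD, n = 3 each). The groups did not overlap, and the log2 fold change was 0.64 ± 0.13 (95% interval 0.36 to 0.92, edgeR adjusted p 0.0975). Hsp90aa1 was at 777, 961 and 918 CPM against 1010, 1286 and 1417 CPM, without overlap (log2 -0.48 ± 0.15, 95% interval -0.80 to -0.16, edgeR adjusted p 0.164). Hsp90b1 was at 251, 257 and 238 against 229.7, 183 and 161 CPM (log2 0.38 ± 0.14), Dnajb5 at 46.8, 41.4 and 42.5 against 41.2, 30.8 and 26.8 CPM (log2 0.40 ± 0.17) and Bag3 at 27.3, 20.9 and 26.9 against 28.9, 35.4 and 35.9 CPM (log2 -0.41 ± 0.19). None of these groups overlapped. Hspa5 at 574, 579 and 523 against 612, 473 and 437 CPM and Dnajb1 at 125, 133 and 133 against 142, 122 and 157 CPM overlapped with the home cage.

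With edgeR 0 of 10 members passed in this comparison (0.139% of all genes), and 5 had an unadjusted p under 0.05 (17.8% of all genes). DESeq2 called 2, Hsph1 with an adjusted p of 0.00142 and Hsp90aa1 with 0.0477 (4.42% of all genes), and voom 0. 3 members were higher and 2 lower without overlap, against 18.4% of all genes in either direction. Without PV home cage replicate 1, Hsph1 (log2 0.78, adjusted p 0.0117), Hsp90aa1 (-0.60, 0.026), Hsp90b1 (0.54, 0.0261) and Dnajb5 (0.60, 0.0407) passed with edgeR, and with no filter on low counts Hsph1 did (adjusted p 0.00318). The 14 oligodendrocyte markers, none at 0, summed to 423 to 1006 CPM in the libraries labelled cKO against 229 to 416 CPM in the home cage. The 11 microglia markers listed summed to 58.4 to 79.4 against 50.8 to 55.3 CPM, with 7 fold changes above 0 and 4 below. Astrocyte sums overlapped, at 716 to 984 against 600 to 767 CPM, with 12 of 12 fold changes above 0. Vascular sums also overlapped, at 99.1 to 605 against 203 to 253 CPM, with 13 of 18 above 0. Pvalb was at 1053, 1346 and 156 CPM in cKO replicates 1, 2 and 3, against 155 to 190.4 CPM in the home cage. Library totals were 21148427 to 27282912 counts against 10096035 to 20353741, and the share of the ribosomal RNA gene was 0.771 to 1.2% against 1.39 to 4.6%, both without overlap. Their part in the result was not tested.

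The PV CFC and PV cKO comparisons share the 3 home cage libraries, so they are not independent of each other. Set directly against each other, PV CFC libraries and PV libraries labelled cKO gave 0 of 10 members past the edgeR threshold, where 0.132% of all genes passed. 0 had an unadjusted p under 0.05 (5.51% of all genes), and DESeq2 (0.574% of all genes) and voom called 0. 2 had groups without overlap (14.1% of all genes). Hspa5 was higher without overlap after CFC (628 to 689 against 523 to 579 CPM, log2 0.24 ± 0.13, 95% interval -0.05 to 0.54). Hsph1 was lower without overlap (288 to 303 against 330.1 to 358 CPM, log2 -0.22 ± 0.13, 95% interval -0.50 to 0.06). Both intervals include 0.

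In the SST libraries labelled cKO, Hsp90aa1 fell and passed with edgeR. It was at 527, 605 and 617 CPM against 896, 722 and 706 CPM in SST home cage libraries, without overlap. The means were 583 ± 48.5 and 774 ± 106 CPM (SD, n = 3 each), the log2 fold change was -0.41 ± 0.11 (95% interval -0.65 to -0.16) and the edgeR adjusted p was 0.0476. The call depended on single libraries: it was lost without any 1 of 5 of the 6 libraries, and held only without SST home cage replicate 3. The adjusted p was 0.143 without SST home cage replicate 1, where the log2 fold change was -0.26, and 0.0663 without replicate 2. It was 0.0882, 0.128 and 0.11 without cKO replicates 1, 2 and 3. The call was also lost with a replicate block (adjusted p 0.103) and with the compared groups only (0.0876). Dnajb1 was at 94.6, 103 and 98.4 CPM in the libraries labelled cKO against 131, 113 and 124 CPM in the home cage, also without overlap (log2 -0.31 ± 0.09, edgeR adjusted p 0.0558). Hsp90b1 was at 337, 394 and 407 against 326, 318 and 315 CPM (log2 0.25 ± 0.09, edgeR adjusted p 0.117), while its partner Hspa5 overlapped at 697, 782 and 822 against 900.4, 752 and 686 CPM.

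1 of 10 members was called, against 8.1% of 15453 genes, so the share is near that of all genes. 3 had an unadjusted p under 0.05 (21.7% of all genes), DESeq2 called 3, Hsp90aa1, Dnajb1 and Hsp90b1 (13.8%), and voom called Hsp90aa1. 4 had groups without overlap, 2 higher and 2 lower (29.8% of all genes). Batch and label coincide here, and markers differed too, none at 0 in a group. The 14 SST markers summed to 11284 to 13464 CPM in the libraries labelled cKO against 14629.8 to 16016 CPM in the home cage, with Sst at 2958 to 3402 against 5521 to 5980 CPM, while 9 of the 14 had fold changes above 0. Sums were also lower without overlap for the 13 excitatory neuron markers (410 to 444 against 775 to 950.1 CPM), the 12 astrocyte markers (376 to 497 against 529 to 737 CPM), the 14 oligodendrocyte markers (733 to 829 against 1089 to 1554 CPM) and the 11 microglia markers listed (46.6 to 58.5 against 77.96 to 108 CPM). The 18 vascular markers summed to 2290.1, 107 and 120.1 CPM against 233, 1208 and 639 CPM. The share of the ribosomal RNA gene was 0.0337 to 0.0526% against 0.502 to 0.742%. Their part in the result was not tested, and deletion and batch cannot be told apart.

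The widest differences lay between the lines. In batch 2, where both were on saline, Bag3 was at 13.7, 14.3, 15.2 and 15.9 CPM in SST libraries against 47.2 and 49.2 CPM in PV libraries. The log2 fold change was -1.70 ± 0.16 (95% interval -2.05 to -1.35), with an edgeR adjusted p of 5.85e-06. Dnajb1 was at 33.7, 30.9, 33.6 and 36.9 CPM in SST against 94.2 and 103 CPM in PV libraries (log2 -1.54 ± 0.13, 95% interval -1.83 to -1.26, edgeR adjusted p 2.49e-06). Dnajb5, from the same J-domain class, was the reverse, at 28.2, 34.8, 42.0 and 29.1 CPM in SST against 17.99 and 17.96 CPM in PV libraries (log2 0.90 ± 0.24, edgeR adjusted p 0.00749). Hsph1 passed as lower in SST (log2 -0.70 ± 0.21, edgeR adjusted p 0.0153), but its PV values of 466 and 909 CPM lay far apart and the lower was inside the SST range of 359 to 511 CPM. Without PV saline replicate 2 the Hsph1 difference was -0.13 and not called. Hsp90aa1 did not separate the lines, at 1894 to 2263 CPM in SST against 1749 and 2363 CPM in PV libraries (log2 -0.00 ± 0.13, 95% interval -0.28 to 0.28).

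4 of 9 members were called, 1 higher and 3 lower, against 53.1% of 11784 genes, so the share is not above that of all genes. DESeq2 (56.2% of all genes) and voom also called 4 each. 5 members had an unadjusted p under 0.05 (58.7% of all genes) and 5 had groups without overlap, 2 higher and 3 lower in SST (59.3% of all genes). The call of Hspa5 as higher appeared without SST saline replicate 1 (log2 0.36, adjusted p 0.0413), that of Hspa8 as lower without PV saline replicate 1 (-0.47, 0.0102) and that of Hsp90b1 as higher without PV saline replicate 2 (0.71, 0.000313). The 2 PV libraries have the lowest totals of the series, and only 2 libraries set the PV level.

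Over all 34 libraries, Bag3 separated the lines with no overlap, at 5.16 to 15.9 CPM (median 11.6) in 16 SST libraries and 20.9 to 57.7 CPM (median 35.6) in 18 PV libraries, although treatment, label and batch differ among them. Dnajb1 did not do so. It was at 24.1 to 42.7 CPM in all batch 1 PV libraries, near the batch 2 SST saline values, while batch 2 PV saline libraries were at 94.2 and 103 CPM and batch 3 PV libraries at 122 to 166 CPM. SST libraries of batches 4 and 5 were at 94.6 to 152 CPM. Hspa5 ran between 261 and 886 CPM in SST libraries and 53.5 and 689 CPM in PV libraries, and Dnajb5 between 28.2 and 65.4 and between 17.96 and 53.4 CPM. Across batches these levels cannot be told apart from batch.

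The ER pair followed the same order of libraries in batch 1. Over the 34 libraries, with log2(CPM + 0.5) centred within batch and line, Pearson's r between Hsp90b1 and Hspa5 was 0.92 and Spearman's rho 0.78. It was the highest r between any 2 of 9 members over the 34 libraries (Hspa1b was not included). The value leans on 2 batch 1 PV libraries, PTZ replicate 1 and saline replicate 1: without them r was 0.72, and without all of batch 1 it was 0.67 over 27 libraries. Over those 27, Hsp90b1 with Hsph1 (0.80) and Hspa5 with Dnajb5 (0.80) were higher, where over all 34 they had 0.43 and -0.07. Hspa8 with Hsph1 had an r of 0.56, Hspa8 with Hsp90b1 0.47, and Dnajb5 with Hsp90aa1 -0.46. Groups of the same batch and line were not centred separately, so differences between treatments or labels there remain in every r. Points share library depth and, within a batch, handling, and genes of a library are not independent.

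**Figure D4:**
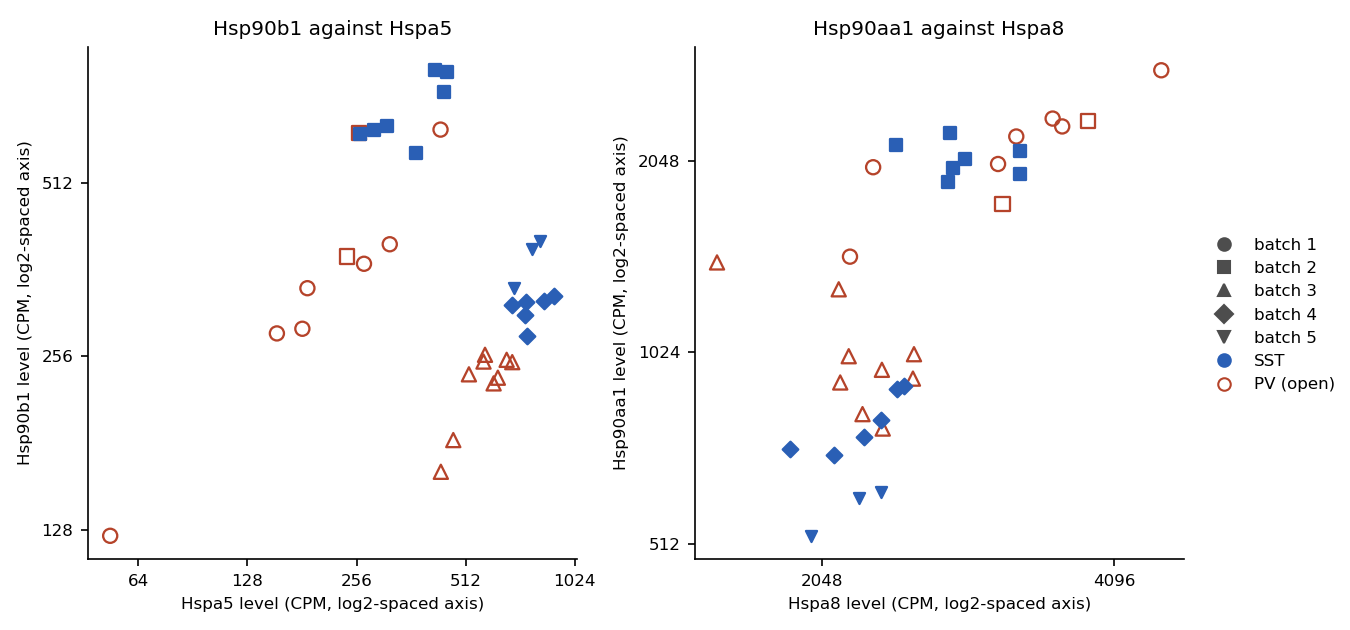
CPM per library (log2-spaced axes) of Hsp90b1 against Hspa5 and of Hsp90aa1 against Hspa8, with marker shape by batch, PV open and SST filled. In batch 1 the ER pair lies along a rising line, from 53.5 to 437 CPM of Hspa5. In batch 2 it scatters within the SST groups, and the highest Hspa5 of SST saline (373 CPM) goes with the lowest Hsp90b1 (576 CPM). Within each home cage group, the libraries labelled cKO included, both genes follow the same order of libraries, and within the CFC groups they do not.

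Among 10147 genes listed in all tables, those most like a member over the 34 libraries differed by member. Nearest to Hspa5 were Pdia3 (r 0.93), an ER disulfide isomerase, App (0.93) and Grin1 (0.91), and nearest to Hsp90b1 were Calr (0.93), the ER lectin chaperone calreticulin, Tm9sf2 (0.93) and Pdia3 (0.92). Without the same 2 libraries, r with Pdia3 was 0.77 for Hspa5 and 0.74 for Hsp90b1. Without all of batch 1, Hspa5 had 0.62 with Pdia3, 0.64 with App and 0.56 with Grin1. These were below its 0.80 with Dnajb5 over the same 27 libraries. Hsp90b1 then had 0.74 with Calr, 0.78 with Tm9sf2 and 0.74 with Pdia3. Hspa8 was nearest to Hspd1 (0.88), the mitochondrial HSP60, then Maged1 (0.86) and Rrp1 (0.83), and among the genes most like Hsp90aa1 were Dynlrb1 (0.85) and Acyp1 (0.85). Dnajb5 was nearest to Homer1 (0.84), a postsynaptic scaffold gene with an activity-induced isoform, then Akt2 (0.81) and 3110035E14Rik (0.78). Without batch 1 these were 0.70, 0.66 and 0.54, and differences between treatment groups of a batch remain in them. Hsph1 was nearest to Nono (0.82), Usp8 (0.81) and Kbtbd4 (0.81). Values were lower for Dnajb1 (Gm13889 0.72, Dnajc17 0.62, Dnajb6 0.60), Bag3 (Tpm2 0.70, Pde5a 0.70, Rab11fip5 0.69) and Hspa1a (Jmjd6 0.70, Flt3 0.66, Mkks 0.65).

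111 further chaperone and protein quality control genes were counted for comparison. With edgeR, 0 of them passed in the PTZ and CFC comparisons of either line and in PV libraries labelled cKO. At an unadjusted p under 0.05 there were 6 of 103 in PV PTZ (13.8% of all genes), 4 of 102 in SST PTZ (4.34%), 28 of 107 in PV CFC (18.7%), 3 of 107 in SST CFC (5.57%) and 21 of 107 in PV cKO (17.8%). DESeq2 called 9 in PV CFC (4.92% of all genes), 1 in SST CFC (0.698%), 6 in PV cKO (4.42%) and 0 in the PTZ comparisons (1.58% in PV and 0.322% in SST). Their median log2 fold change was 0.02 in SST PTZ (54 of 102 tested above 0), -0.29 in PV PTZ (16 of 103), 0.07 in PV CFC (65 of 107) and 0.01 in SST CFC (55 of 107). The ER list, with Hspa5 and Hsp90b1 in it, had 16 of 19 genes above 0 in SST PTZ cells (median 0.13) and 1 of 19 in PV PTZ cells (median -0.56). Of all genes, 47.1% and 49.1% were above 0. Most other lists also lay mainly below 0 in PV PTZ cells, with 1 of 19 co-chaperones of HSP70 and HSP90 and 1 of 14 TRiC and prefoldin genes above 0. The small heat shock proteins did not, with 3 of 4 tested above 0 (median 0.07). Of the heat shock factors Hsf1, Hsf2 and Hsf4, none passed in any of these comparisons with edgeR or DESeq2 and 0 had an unadjusted p under 0.05. After CFC in PV cells, the genes of smallest p included Hspa12a (259.7 ± 27.9 against 172 ± 13.98 CPM), Dnajc3, the ER J-domain inhibitor of the kinase PERK (42.6 ± 2.31 against 30.1 ± 5.67 CPM), and Eif2ak3, which encodes PERK (35.0 ± 1.69 against 22.9 ± 2.22 CPM). Their edgeR adjusted p were 0.186, 0.187 and 0.189. Selenok, an ER membrane selenoprotein, was at 134 ± 5.46 CPM after CFC against 211 ± 36.1 CPM in the home cage, and the prefoldin gene Pfdn5 at 197 ± 5.34 against 301 ± 85.6 CPM (edgeR adjusted p 0.186 each).

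In SST libraries labelled cKO, 6 of 107 rose and 8 fell (13.1%, against 8.1% of all genes). Hyou1, an ER exchange factor for Hspa5, fell to 45.8 ± 4.76 CPM in libraries labelled cKO, against 81.9 ± 6.92 CPM in the home cage (log2 -0.84 ± 0.11, edgeR adjusted p 0.00214). Pfdn5, a prefoldin subunit that hands actin and tubulin to the TRiC chaperonin, fell to 76.6 ± 5.26 CPM, against 154 ± 15.0 CPM in the home cage. Manf, Os9, Stub1, Pfdn6, Hspe1 and Cryab fell too. Dnaja1, a J-domain partner of cytosolic HSP70, rose to 402 ± 36.5 CPM in libraries labelled cKO, against 279 ± 26.4 CPM in the home cage (log2 0.53 ± 0.10, edgeR adjusted p 0.00959), and Ptges3 (the HSP90 co-chaperone p23), Dnajc27, Bag4, Hspa9 and Edem3 rose. Here again batch and label coincide.

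Between SST and PV saline libraries, 10 of 102 were higher and 48 lower in SST (56.9%, against 53.1% of all genes). Of all 11784 genes tested, 3189 were lower in SST. Lower in SST were 12 of 19 co-chaperones of HSP70 and HSP90, the member Bag3 among them (Cdc37, log2 -1.78 ± 0.21). So were 8 of 14 TRiC and prefoldin genes (Cct7, log2 -1.34 ± 0.12) and 7 of 9 mitochondrial chaperones (Hspe1, log2 -2.19 ± 0.21). Higher in SST was Hspa13, an HSP70 of microsomes, at 65.3 ± 7.69 CPM against 17.0 ± 1.73 CPM in PV (log2 1.95 ± 0.17, edgeR adjusted p 3.04e-06).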

How the data were processed

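The deposited tables hold read counts per gene symbol, whole numbers in batches 2 to 5. The batch 1 table holds estimated counts, 11.3% of them not whole, per the values the authors deposited, and these were rounded. The submitters' processing notes name, without roles, the builds mm10 and GRCm39 and the tools HTSeq 0.11.0, STAR 2.5.2a, DESeq2 and cutadapt 1.18. The tables list 24371, 11808 and, for batches 3 to 5, 53465 rows. In batch 2, 11265 to 11798 rows had a count in each library, so low genes had been dropped there. In batch 1, 15151 to 16610 rows had a count in each library, and why its list is shorter than that of batches 3 to 5 is not known. 0 columns were left unused. Each batch was fitted with edgeR 4.0.16 (TMM scaling, filterByExpr, robust quasi-likelihood F test, two-sided, Benjamini-Hochberg over all genes tested, threshold 0.05). Batches 4 and 5 were fitted together, and differences of responses in joint fits with a term per group. Intervals are 95% from the test's t distribution. Alternatives were DESeq2 1.42.0, limma 3.58.1 voom, other size factors, no filter, compared groups only, a replicate block and each library left out. The fits were tested on simulated counts. No read carries a molecular identifier that the sources mention, so counts are of reads.

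Named were all 10 members, up to 4 genes of each other list past the threshold or otherwise the 2 of smallest p, and the 3 most alike genes, of mean CPM of at least 5. 1 of these alike genes is not reported here. The members and lists were chosen with earlier results of these data known. All 37 within-group pairs of libraries differed beyond sampling noise (chi-square per degree of freedom at least 4.73), and 0 were identical. No label says that each library is a different animal. The spread behind a p-value is that of these libraries and may be technical.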

Additional observations from a re-analysis of the deposited data

Results flagged for a closer look

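Hspa8 was marked because its groups moved in opposite directions without overlap in 2 contrasts of the PV line. It was at 2546, 2540 and 2253 CPM after CFC against 2181, 2130 and 1596 CPM in the home cage, and at 3108, 2188, 2311 and 3245 CPM after PTZ against 4577, 3537 and 3618 CPM after saline. The CFC response less the PTZ response was 0.78 ± 0.29 on the log2 scale (95% interval 0.18 to 1.39), with an edgeR adjusted p of 0.294 and a DESeq2 adjusted p of 0.17, so the difference did not pass the correction. The 2 contrasts come from separate batches, and 73.2% of the 50-base stretches of Hspa8 occur in other genes. Only PV PTZ and SST saline have 4 libraries, enough to look for a library set apart, and none was found in the 19 sets of values there, 1 per listed member and group. The other 9 groups were not examined.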

How the results depend on the processing

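Bag3, Dnajb1 and Dnajb5 between SST and PV saline libraries kept their direction and their call under every alternative run. Counts of genes past the threshold depended on the tool and filter. For PV PTZ, edgeR's 4 genes became 215 with DESeq2. For SST PTZ, 17 became 38 with DESeq2, 27 with voom and 38 with the compared groups only, and 0 members became 2 and, with the compared groups only, 1. For PV CFC, 0 genes became 745 with DESeq2, 1 with voom, 1032 with no filter and 2 with the compared groups only, and 0 members became 2 with DESeq2. For SST CFC, 6 became 102 with DESeq2 and 11 with no filter. For PV cKO, 21 became 669 with DESeq2, 1072 with no filter and 10 with the compared groups only, and 0 members became 2 and 1 with the first pair of these. For SST cKO, 1252 became 2126 with DESeq2, and 1 member became 2 with other size factors, 3 with DESeq2 and 0 with the compared groups only. For PV CFC against PV cKO, 20 became 87 with DESeq2 and 208 with no filter. For the differences of responses, 0 became 1 (DESeq2, PTZ), 0 became 327 (DESeq2) and 708 (no filter) for CFC, 10 became 62 (DESeq2) and 2 (voom) for SST CFC less PTZ, and 1 became 40 (DESeq2), 0 (voom) and 0 (compared groups only) for PV CFC less PTZ. The cause was not tested.

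Pairing was checked by correlating libraries of the same replicate number, with 2 or 3 pairs per comparison. The lowest correlation per comparison was -0.37 to 0.07 and the highest 0.03 to 0.30. So few pairs cannot show whether libraries were paired. For SST cKO, the check and the block below joined libraries of separate batches by number alone. With a replicate block, genes past the threshold were 2 for PV PTZ, 8 for SST PTZ, 2 for PV CFC, 2 for SST CFC, 1 for the PTZ difference, 0 for SST CFC less PTZ and 0 for PV CFC less PTZ, and members were 0 for SST cKO. Under the block Hsp90aa1 was -0.022 in SST PTZ and 0.086 between SST and PV saline, and Hspa5 was 0.0051 in SST CFC.

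Other signs turned for fold changes near 0: Hspa1b in PV PTZ (0.0049 with no filter), Hspa5 in SST CFC (0.00029 with other size factors, 0.00033 with DESeq2, 0.010 with voom), Hspa5 in SST cKO (0.024 with no filter), and Hsp90aa1 between SST and PV saline (0.019 with voom, 0.0034 with the compared groups only). Hspa1b in SST cKO, at 0.58 ± 0.46 on its own, was -0.051 when summed with Hspa1a, an alternative chosen after seeing the data.

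Leaving out each library in turn gave 0 to 14 genes for PV PTZ, 0 to 1481 for PV CFC, 1 to 37 for SST CFC, 7 to 1224 for PV cKO, 412 to 1292 for SST cKO, 4 to 15 for PV CFC against PV cKO, 0 to 1 for the PTZ difference, 0 to 881 for the CFC difference, 0 to 59 for SST CFC less PTZ and 0 to 9 for PV CFC less PTZ. Members called were 0 to 5 for PV CFC, 0 to 4 for PV cKO, 0 to 1 for SST cKO and 0 to 2 for the CFC difference. Log2 fold changes that changed sign ranged, in PV PTZ, -0.18 to 0.24 (Hspa1b) and -0.30 to 0.0071 (Dnajb1). In SST PTZ Hsp90aa1 ranged -0.019 to 0.068. In PV CFC they were -0.14 to 0.56 (Hspa1b) and -0.17 to 0.049 (Bag3), and in SST CFC -0.084 to 0.11 (Hspa5), -0.028 to 0.33 (Hspa1a), -0.0073 to 0.12 (Hsph1) and -0.14 to 0.067 (Dnajb5). In PV cKO Hspa1a ranged -0.30 to 0.078, and in SST cKO Hspa5 ranged -0.10 to 0.12 and Hspa8 -0.049 to 0.16. Between SST and PV saline, Hsp90aa1 ranged -0.21 to 0.24 and Hsp90b1 -0.022 to 0.71. For PV CFC against PV cKO, Hsp90aa1 ranged -0.026 to 0.14 and Hsp90b1 -0.048 to 0.015. Among differences, Dnajb5 ranged -0.51 to 0.14 for PTZ, Hspa8 -0.22 to 0.011 and Hspa1a -0.096 to 0.28 for CFC, Hspa8 -0.063 to 0.20, Hspa1a -0.48 to 0.089 and Hsph1 -0.14 to 0.054 for SST CFC less PTZ, and Hspa1b -0.19 to 0.51 and Hsp90aa1 -0.24 to 0.042 for PV CFC less PTZ. Where a group of 2 lost a library, the lone one was assumed to vary like the others. Hspa1a and Hspa1b, at or below 8.50 CPM, are the members that depth limits most.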
